A study of Rattus norvegicus with 12 samples.

Results

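Cyp1a1, Cbr1, Dcxr and Akr1b1 encode enzymes that oxidise or reduce small organic molecules. They were chosen by gene symbol: every probe set (a group of short probes read as a single value) whose only annotated gene was Cyp1a1, Cbr1, Dcxr or Akr1b1 was taken. This gave 5 probe sets for 4 genes, of 31042 probe sets and 14217 singly annotated genes on the array. Each of Cyp1a1, Cbr1 and Dcxr had 1 probe set and Akr1b1 had 2. The genes had been picked with their diabetic and non-diabetic values known, so the differences between those conditions are given here as a description, without a test.

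The study measured RNA from the remote zone of the left ventricular free wall, the heart muscle away from an infarct, in male Sprague-Dawley rats. The diabetic rats had received 1 intraperitoneal injection of streptozotocin (65 mg/kg), a toxin of pancreatic beta cells, at 8 weeks of age, and the non-diabetic rats had received citrate buffer alone. Surgery followed 10 weeks after the injection. In both conditions, RNA was taken from a sham group, or on day 1, 7, 14, 28 or 56 after the left anterior descending coronary artery had been tied. RNA from 3 rats was combined for every one of the 12 arrays, and each condition had 1 array per time point (6 time points), so the spread between individual rats is not visible and an array is the unit of every n below. Ages on the labels ran from 18 weeks (sham and day 1) to 26 weeks (diabetic day 56). For non-diabetic day 56 the label says 22 weeks, which does not match 56 days after surgery. For the sham arrays the labels speak of the time before the sham operation and do not state when tissue was collected. The tissue label of the sham arrays speaks of an infarct, but their protocol describes the sham operation, which was followed here.

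Cyp1a1 is a cytochrome P450 that oxidises aromatic hydrocarbons and other foreign compounds, and it is the classic target of the aryl hydrocarbon receptor (Ahr), which binds DNA together with Arnt at elements with the core GCGTG. Carbonyl-reducing enzymes use NADPH to turn aldehydes and ketones into alcohols. Cbr1 reduces quinones, prostaglandins and lipid aldehydes, and it reduces the cardiotoxic drug doxorubicin to its alcohol. Dcxr reduces L-xylulose to xylitol in the glucuronate pathway and also reduces dicarbonyl compounds. Akr1b1 is aldose reductase, which turns glucose into sorbitol in the polyol pathway, a route long studied in diabetic tissue.

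The sequence before the start of a gene is shown because Ahr targets are described by the GCGTG core. RefSeq promoter sequence of rat build GRCr8 was held for Cbr1 and Dcxr and for Cbr1l1, a near copy of Cbr1. The 250 bases before each annotated start follow, 5′ to 3′ on the strand of the gene, with capitals at GCGTG or its reverse complement CACGC. Cbr1 lies at chr11:46346155-46346404 (plus strand), Cbr1l1 at chr11:46362345-46362594 (plus strand) and Dcxr at chr10:106506620-106506869 (minus strand).
Cbr1: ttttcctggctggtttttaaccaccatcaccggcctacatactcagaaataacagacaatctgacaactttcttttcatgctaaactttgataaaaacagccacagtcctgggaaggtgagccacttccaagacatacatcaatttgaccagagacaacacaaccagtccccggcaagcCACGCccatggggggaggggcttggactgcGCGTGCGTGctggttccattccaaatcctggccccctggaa
Cbr1l1: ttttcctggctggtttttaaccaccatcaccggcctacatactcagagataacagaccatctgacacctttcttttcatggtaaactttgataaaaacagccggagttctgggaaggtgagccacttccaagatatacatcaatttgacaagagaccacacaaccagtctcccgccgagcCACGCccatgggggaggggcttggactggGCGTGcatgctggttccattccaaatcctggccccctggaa
Dcxr: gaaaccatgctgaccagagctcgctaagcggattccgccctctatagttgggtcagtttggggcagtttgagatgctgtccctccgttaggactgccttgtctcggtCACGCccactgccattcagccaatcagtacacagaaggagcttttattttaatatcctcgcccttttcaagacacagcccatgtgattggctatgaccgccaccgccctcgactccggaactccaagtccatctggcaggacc
Counted back from the start, the Cbr1 window held GCGTG at bases 41 to 37 and 37 to 33, which overlap by their end base, and its reverse complement at bases 71 to 67. The Dcxr window held 1 match, on the reverse strand at bases 143 to 139. Searched on both strands, GCGTG was found at least once in 25.9% of 33469 promoter windows of the same length and at least 3 times in 2.58%. The antioxidant response element core TGACNNNGC, found in 10.1% of those windows, had 0 matches in the 3 windows shown. A match describes the letters only. The Cbr1 and Cbr1l1 windows were identical at 235 of 251 aligned positions (93.6%).

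RefSeq lists 3 further protein-coding genes of this kind on chromosome 11 (Cbr1l1, Cbr1l2 and Cbr1l3), and 0 probe sets carry their symbols. Signal of the Cbr1 probe set could therefore include RNA of these copies, and the 4 could not be told apart. Akr1b1 lies on chromosome 4 with its relatives Akr1b7, Akr1b8 and Akr1b10, and several Akr1b1 pseudogenes are annotated elsewhere. Cyp1a1 lies on chromosome 8, as does Cyp1a2, and Dcxr on chromosome 10.

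The 12 arrays were alike in overall brightness, with a median intensity between 28.9 and 34.8. The 2 controls of RNA integrity did not go together: the log2 difference between the 3′ and 5′ beta-actin control probe sets was 0.982 to 1.00 on the 4 arrays of days 1 and 7 and 0.368 to 0.589 on the other 8, whereas the Gapdh control gave 0.317 to 0.360 at days 1 and 7, inside its range of 0.114 to 0.479 at the other time points. In view of the beta-actin difference, values over those 8 arrays and those 4 arrays are given beside each result. Heart muscle markers, of which 9 of 10 were measured, were bright on every array, with summed intensities of 41475 to 53408 on diabetic and 46356 to 52648 on non-diabetic arrays. Summed endothelial markers (9 of 10 measured) ran from 3118 to 3929 on diabetic and from 3399 to 4754 on non-diabetic arrays, lower in the diabetic array at 5 of 6 time points. Summed erythroid markers (3 of 6 measured) ran from 2279 to 6092 on diabetic and from 4442 to 6636 on non-diabetic arrays, again lower at 5 of 6 time points. Summed atrial markers (6 of 6 measured) ran from 9430 to 12849 on diabetic and from 5768 to 11803 on non-diabetic arrays, lower in the diabetic array at 1 time point. Summed mesothelial markers (3 of 4 measured) ran from 68.3 to 170 on diabetic and from 103 to 256 on non-diabetic arrays, lower in the diabetic array at 4 of 6 time points, and adipocyte markers (6 of 6 measured) from 2754 to 5694 on diabetic and from 1946 to 4406 on non-diabetic arrays, lower at 2. The mean log2 difference of the sums was -0.22 for endothelial, -0.36 for erythroid, 0.47 for atrial, -0.43 for mesothelial and 0.30 for adipocyte markers. The part of cell composition and RNA quality in the results below was not tested, and in such bulk tissue fewer cells of a type cannot be told apart from less RNA per cell.

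Cyp1a1 was near the bottom of the intensity scale in non-diabetic hearts and above the array median in diabetic hearts. Probe set 1370269_at read 169, 63.0, 64.3, 56.7, 73.9 and 105 on the diabetic arrays at sham and days 1, 7, 14, 28 and 56. The non-diabetic arrays read 3.45, 22.5, 0.609, 6.52, 3.60 and 7.77 at the same time points. Every diabetic array stood above every non-diabetic one. All 6 diabetic values were above the median of their array, whereas all 6 non-diabetic values were below it and 5 of these were below the lower quartile. No detection calls were used, so whether Cyp1a1 RNA was present at all in non-diabetic hearts could not be settled.

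On the scale log2(intensity + 16), which shrinks differences between dim values, Cyp1a1 was higher in diabetic hearts by a mean of 2.13 ± 0.74 (SD over n = 6 time-matched pairs), or 4.39-fold with that offset. On this scale the difference was 3.25 in the sham pair, 2.27 in the day 7 pair and 1.04 in the day 1 pair. The order of the pairs depends on the offset as well, since the plain ratio of intensities was 49.1 at sham and 105 at day 7, where the non-diabetic value was 0.609. At day 1 the non-diabetic array was also the brightest of its 6. The mean was 2.37 over the 8 arrays outside days 1 and 7 and 1.66 over the 4 arrays of those days. Because the non-diabetic values were so low, the size depended on the offset: it was 3.77 with an offset of 1 and 1.06 with an offset of 64. The probe set met the minimum mean level of 5.20 used for testing only through its diabetic arrays, which averaged 6.63 against 4.49 on non-diabetic arrays.

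Cbr1 was bright in both conditions. Probe set 1368037_at read 908, 543, 887, 528, 959 and 1054 on the diabetic arrays in the order sham, day 1, 7, 14, 28 and 56, against 227, 247, 319, 312, 279 and 235 on the non-diabetic arrays. The lowest diabetic array (day 14) was above the highest non-diabetic one (day 7). Diabetic hearts were higher by 1.50 ± 0.52 on the log2(intensity + 16) scale (SD, n = 6 pairs), or 2.83-fold. The difference was 1.62 over the 8 arrays outside days 1 and 7 and 1.26 over the 4 arrays of those days.

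Among the diabetic Cbr1 values, days 1 and 14 stood 0.69 log2 units below the other 4 arrays. The residual SD that remained after time point and condition were fitted was 0.37. With 1 array per condition and time point, that SD reflects the spread of the paired differences. It does not measure noise between replicate arrays, so the gap cannot be judged against noise. The non-diabetic arrays showed no such gap, and their whole range was 0.46 log2 units. The Cbr1 difference was accordingly smallest at day 14 (0.73) and day 1 (1.09), and largest at day 56 (2.09) and sham (1.92). Only a single pooled array stands behind each of these points.

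Dcxr went the other way. Probe set 1367909_at read 101, 95.7, 211, 404, 112 and 62.3 on the diabetic arrays, against 378, 504, 527, 634, 347 and 295 on the non-diabetic arrays, in the same order of time points. Within each time point the diabetic array was lower, although the groups overlapped, since diabetic day 14 (404) exceeded non-diabetic sham, day 28 and day 56. The mean difference was -1.56 ± 0.57 log2 units (SD, n = 6 pairs), or 2.94-fold lower. It was -1.47 over the 8 arrays outside days 1 and 7 and -1.74 over the 4 arrays of those days.

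In diabetic hearts Dcxr spanned the widest range of the 5 probe sets along the time course, 2.42 log2 units, against 1.07 in non-diabetic hearts. Day 14 was the brightest array in each condition and day 56 the dimmest. As with Cbr1, the difference between conditions was smallest at day 14 (-0.63), and it was largest at day 1 (-2.22). Beside these genes, the 26 other probe sets that were higher in diabetic hearts and had passed the test had their smallest difference at day 14 in 2 cases and at day 1 in 17 cases. Of the 41 others that were lower, 5 had it at day 14 and 14 at day 7.

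Akr1b1 differed less. Its brighter probe set, 1367734_at, read 1610, 1268, 1709, 1384, 1396 and 1764 on the diabetic arrays, against 2192, 1860, 1979, 2530, 1941 and 1995 on the non-diabetic arrays. All 6 diabetic arrays were below all 6 non-diabetic ones. The mean difference was -0.45 ± 0.25 log2 units (SD, n = 6 pairs), or 1.37-fold lower, with -0.49 over the 8 arrays outside days 1 and 7 and -0.38 over the 4 arrays of those days. The gap between the groups was small beside that mean, however: the highest diabetic and the lowest non-diabetic array lay 0.076 log2 units apart. The residual SD was 0.18, but it reflects the spread of the paired differences, so the gap cannot be judged against noise.

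The dimmer Akr1b1 probe set, 1396360_at, read 47.9, 31.9, 38.8, 38.5, 33.2 and 37.3 on the diabetic arrays, against 54.1, 56.1, 35.2, 82.9, 55.5 and 46.6 on the non-diabetic arrays. It was lower in the diabetic array at 5 of 6 time points and 0.097 log2 units higher at day 7, and the groups overlapped. Its mean difference was -0.38 ± 0.35 (SD, n = 6 pairs), with -0.44 over the 8 arrays outside days 1 and 7 and -0.25 over the 4 arrays of those days. Both Akr1b1 probe sets had their largest difference at day 14, where the non-diabetic array was the brightest of all 12.

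**Figure D1:**
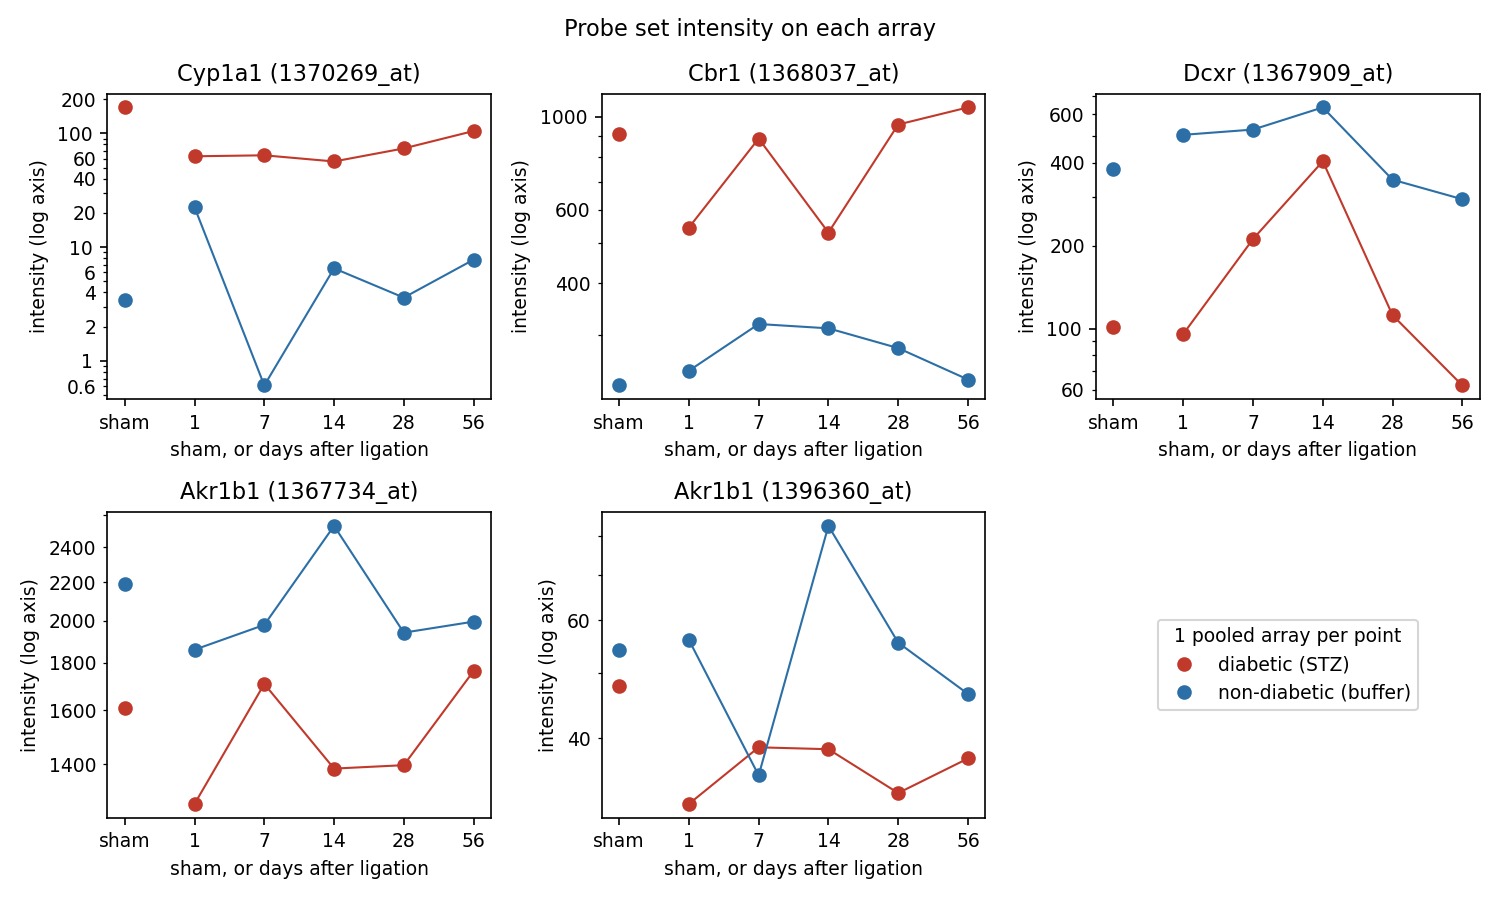
Intensity of each probe set (vertical, log axis, each panel with its own scale) at sham and at 1 to 56 days after ligation (horizontal) on diabetic and non-diabetic arrays, 1 pooled array per point with no error bar; lines join ligated arrays only. Cyp1a1 and Cbr1 lie higher on every diabetic array, while diabetic Dcxr at day 14 (404) reaches into the non-diabetic range.

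**Figure D2:**
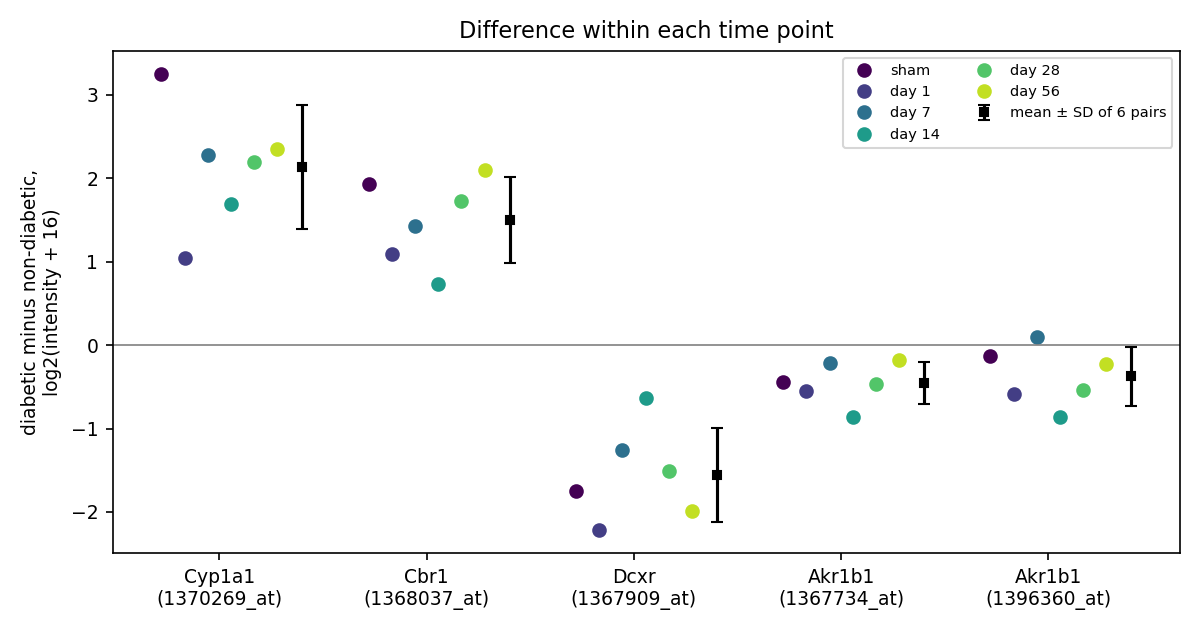
Diabetic minus non-diabetic difference in log2(intensity + 16) for each probe set (horizontal) and time point (colours), with the mean and SD of the 6 pairs as a square with bars. Means run from 2.13 for Cyp1a1 to -1.56 for Dcxr; 1 of the 30 points, Akr1b1 probe set 1396360_at at day 7, lies on the other side of 0 from its mean.

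Over the whole array, of 18625 probe sets tested, 0.376% passed for diabetes in the limma fit at a Benjamini-Hochberg adjusted p of 0.05, with 0.15% higher (28) and 0.226% lower (42), a balance that turned without the day 1 pair (47 higher and 27 lower). The diabetic array was higher at all 6 time points for 2.42% of probe sets, which Cyp1a1 and Cbr1 joined, and lower at all 6 for 3.81%, which Dcxr and the brighter Akr1b1 probe set joined. The lowest diabetic array was above the highest non-diabetic one for 0.123% of probe sets, among them Cyp1a1 and Cbr1, and the highest diabetic array was below the lowest non-diabetic one for 0.268%, among them the brighter Akr1b1 probe set. Since the genes were chosen on this contrast, nothing is read from these counts.

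Between neighbours in the order of the 12 arrays there are 11 gaps, and those larger than the residual SD numbered 3 for Cyp1a1, 2 for Cbr1, 3 for Dcxr, and 2 and 1 for the Akr1b1 probe sets. For Cyp1a1 (residual SD 0.52), these gaps lay below diabetic sham, between the diabetic and the non-diabetic arrays, and below non-diabetic day 1. For Cbr1 they were the step above diabetic day 1 and the step between the conditions. For Dcxr (residual SD 0.40) they lay on both sides of diabetic day 7 and above diabetic day 56. For the brighter Akr1b1 probe set they lay below non-diabetic day 14 and below diabetic sham, and for the dimmer one below non-diabetic day 14. The other gaps were smaller than the residual SD. That SD comes from the differences between conditions, on which the genes were chosen, so the gaps are only a description.

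Whether the genes changed with time after ligation was tested, since they were picked on the difference between conditions. They were picked with earlier results of these data known, however, so the choice may not be independent of the time course. Cyp1a1 met the minimum level for these tests only through its diabetic arrays, so its estimates over time are given as a description. The number of probe sets tested on the array was again 18625, and each day was compared with sham over both conditions. None of Cbr1, Dcxr and Akr1b1 passed on any day by limma. On day 1, 7.47% of all probe sets passed (783 or 4.2% higher and 609 or 3.27% lower; with quantile normalization, 571 higher and 685 lower), and on day 7, 7.65% passed (870 or 4.67% higher and 554 or 2.97% lower; with quantile normalization, 424 higher and 631 lower). On days 14, 28 and 56, 0% of probe sets passed, with 2172, 675 and 3062 at an unadjusted p under 0.05.

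Dcxr at day 14 had the largest estimate, 1.28 ± 0.35 log2 units above sham (SE, 2 arrays against 2), with a limma adjusted p of 0.402 and an unadjusted limma p of 0.00358. At day 7 its estimate was 0.71 ± 0.35 (limma adjusted p = 0.231), at day 1 it was 0.16 ± 0.35, and at day 56 it was -0.46 ± 0.35 (limma adjusted p = 0.506). Cyp1a1, as a description, had its lowest estimate at day 7, -0.72 ± 0.39, where its non-diabetic array read only 0.609. Cbr1 stayed between -0.31 and 0.21 with an SE of 0.33, and the brighter Akr1b1 probe set between -0.29 and -0.0020 with an SE of 0.21. With SEs of this size and 2 arrays per time point, the misses do not show constant levels.

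**Figure D3:**
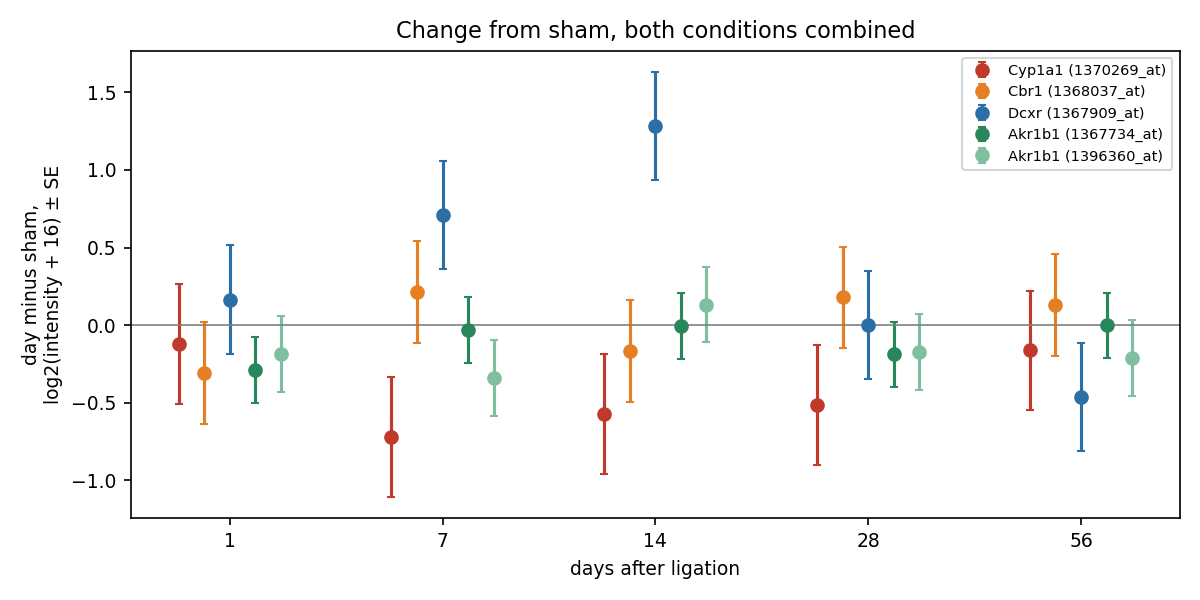
Estimated log2(intensity + 16) change from sham at each day after ligation (horizontal) for the 5 probe sets, with bars of 1 SE, from the limma fit to all 12 arrays with time point and condition. Dcxr at day 14 (1.28) stands highest, and none of the 25 estimates passed the adjusted threshold. The Cyp1a1 estimates are a description.

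A straight trend was fitted over the 10 ligated arrays, per unit of log2 day. Its slopes were 0.071 ± 0.055 for Cbr1, -0.083 ± 0.10 for Dcxr and 0.038 ± 0.036 for the brighter Akr1b1 probe set (SE). None of these passed the threshold by limma, where 9.92% of all probe sets passed (737 or 3.96% higher and 1111 or 5.97% lower). With quantile normalization, 877 were higher and 849 lower. The Cyp1a1 slope, -0.021 ± 0.056, is again a description. Over all 12 arrays, the interaction of diabetes with ligation was estimated at -1.34 ± 0.56 log2 units for Cyp1a1 (SE). It rests on a single sham array per condition and on the same diabetic and non-diabetic values that the gene was chosen on, most of the latter near the floor of the scale, so it is given as a description, as are the other interactions of these genes. The corresponding interaction was -0.51 ± 0.57 for Cbr1, 0.23 ± 1.01 for Dcxr and -0.012 ± 0.36 for the brighter Akr1b1 probe set. The interaction of diabetes with log2 day was 0.21 ± 0.10 for Cyp1a1 and 0.15 ± 0.11 for Cbr1. For both interactions 0% of probe sets passed, with 32 and 309 at an unadjusted p under 0.05. Neither fit held time point as a factor, so other variation between time points stayed in what was left unfitted. These misses therefore do not show that the difference between conditions was the same throughout. Among the day and slope tests of these genes, Dcxr at day 14 was the only one with an unadjusted limma p under 0.05.

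The 3 genes with the most similar pattern over the 12 arrays were found for each probe set among 10619 genes, by Pearson correlation of log2 values. The arrays fall into a diabetic and a non-diabetic set, and the difference between those sets enters each correlation. For Cyp1a1 these were the stress kinase gene Mapk13 (r = 0.949), Gpihbp1, which anchors lipoprotein lipase (r = 0.948), and Acot1, an acyl-CoA thioesterase (r = 0.947). For Cbr1 they were Tceal5 (r = 0.978), Ech1 (r = 0.905) and Mapk13 (r = 0.888). For Dcxr they were the brain-type creatine kinase gene Ckb (r = 0.929), the branched-chain aminotransferase gene Bcat2 (r = 0.928) and Asrgl1 (r = 0.906). For the brighter Akr1b1 probe set they were the muscle phosphoglycerate mutase gene Pgam2 (r = 0.932), Doc2g (r = 0.930) and Sfxn5 (r = 0.923), and for the dimmer one Supv3l1 (r = 0.944), Ndufs8 (r = 0.924) and Kptn (r = 0.920). The 2 Akr1b1 probe sets had 0 of these genes in common, and Cyp1a1 and Cbr1 had Mapk13 in common. Lists of 3 genes are too short to judge whether probe sets go together. The difference between conditions was 2.45 ± 0.38 log2 units for Acot1 and 1.94 ± 0.40 for Tceal5, both higher in diabetic hearts at all 6 time points, and -1.20 ± 0.44 for Ckb, lower at all 6 (SD, n = 6 pairs). Over the whole array, 2.42% of probe sets were higher and 3.81% lower at all 6. These genes were found by likeness to genes chosen on this contrast. Their differences follow from that choice, and nothing is read from them.

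Other genes of the same pathways mostly missed the threshold for diabetes. Of 163 genes on 11 lists, 119 were tested, and 0 were higher and 1 was lower in diabetic hearts by limma (0.84%, against 0.376% of all probe sets). Their median difference was -0.034 log2 units, against -0.010 over 10623 genes. The lists were chosen with earlier results of these data known, so their calls and shares may not be independent of that choice. A listed gene is counted by its brightest probe set only, whereas the array share counts all probe sets. Both limits hold for the list results below as well. The gene that passed was Aldh4a1, the mitochondrial dehydrogenase that completes proline breakdown to glutamate. It read 158, 148, 196, 193, 170 and 147 on the diabetic arrays, against 435, 446, 441, 489, 307 and 289 on the non-diabetic arrays, so the groups did not overlap. Its difference was -1.16 ± 0.15 (SE, limma adjusted p = 0.00892), and the call was lost without the sham pair (limma adjusted p = 0.0609) or without the day 56 pair (limma adjusted p = 0.0546).

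The list of the Ahr battery had 7 tested genes, which included Ahr, Arnt and the repressor Ahrr beside targets. None passed for diabetes, and their median difference was 0.036, the value of Aldh3a1. With 5 residual df, a miss does not show that a gene was unchanged. The receptor Ahr had a median intensity of 55.4 on diabetic and 51.5 on non-diabetic arrays, with a difference of -0.088 ± 0.13 (SE, limma adjusted p = 0.851). Its partner Arnt differed by 0.19 ± 0.16 (limma adjusted p = 0.714) and its repressor Ahrr by -0.056 ± 0.10 (limma adjusted p = 0.881). Of other known Ahr targets, Cyp1b1 differed by 0.13 ± 0.27 (limma adjusted p = 0.898) and Nqo1, a quinone reductase, by -0.00073 ± 0.19 (limma adjusted p = 0.999). Cyp1a2 was too dim to test, at 3.11 to 9.42 on diabetic and 4.02 to 10.6 on non-diabetic arrays. Tiparp, an Ahr-induced ADP-ribosyltransferase, was 0.58 ± 0.16 higher and was above its partner array at all 6 time points, without passing (limma adjusted p = 0.209).

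Among 18 tested short-chain dehydrogenases and reductases, the family of Cbr1 and Dcxr, 0 passed and the median difference was 0.052. Cbr3, a relative of Cbr1, differed by 0.20 ± 0.27 (SE, limma adjusted p = 0.829), and Cbr4, a mitochondrial quinone reductase, by 0.14 ± 0.20 (limma adjusted p = 0.850). Among 9 tested aldo-keto reductases, 0 passed and the median was -0.12. Akr1a1, which reduces glucuronate upstream of Dcxr, was bright, at 1746 to 2497 on diabetic and 1731 to 3149 on non-diabetic arrays, and differed by -0.18 ± 0.12 (limma adjusted p = 0.632).

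Among 6 tested genes of polyol and fructose metabolism, 0 passed (median -0.091). Sord, which turns the sorbitol made by Akr1b1 into fructose, had a median of 289 on diabetic and 285 on non-diabetic arrays and differed by -0.043 ± 0.18 (SE, limma adjusted p = 0.956). The 9 tested genes of the glucuronate and xylulose route had a median of 0.017 with 0 past the threshold, and Xylb, the kinase that uses the xylulose formed after Dcxr, was too dim to test. The 10 tested genes of NADPH supply had a median of 0.092 with 0 past it.

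In the lists of neighbouring pathways the counts were similar. Aldehyde dehydrogenases (14 tested) had a median of -0.19, with Aldh4a1 the single call and Aldh2, the mitochondrial enzyme of acetaldehyde oxidation, at -0.16 ± 0.17 (SE, limma adjusted p = 0.783). Glyoxalase and dicarbonyl genes (7 tested) had a median of -0.22 and 0 calls, with Hagh at -0.68 ± 0.17 (limma adjusted p = 0.175) and Glo1 at 0.083 ± 0.14 (limma adjusted p = 0.873). Cytochrome P450 genes and their redox partners (17 tested) had a median of -0.021 and 0 calls. There Cyp2e1, which oxidises ethanol and ketone bodies, was at 1.31 ± 0.39 (limma adjusted p = 0.238) and the P450 reductase Por at 0.35 ± 0.17 (limma adjusted p = 0.502). Glutathione transferases (17 tested) had a median of -0.090 and 0 calls. Osmolyte genes (7 tested) had 0 calls, with 4 genes above 0 and 3 below. Their median of 0.44 was the value of the transcription factor gene Nfat5, which was higher in the diabetic array at 3 time points and lower at 3. The taurine transporter Slc6a6 was at 0.56 ± 0.15 (limma adjusted p = 0.199).

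**Figure D4:**
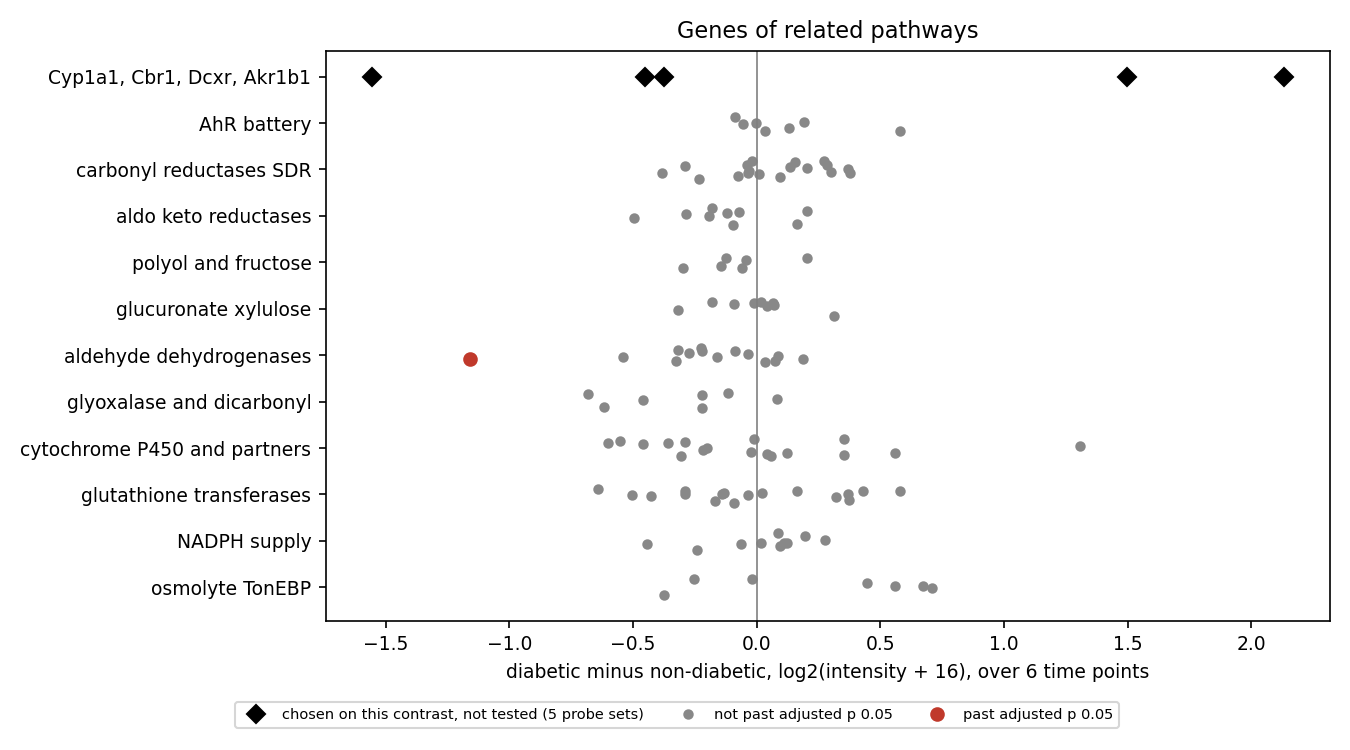
Diabetic minus non-diabetic difference in log2(intensity + 16) (horizontal) for each tested gene of the 11 lists (grey, or red where it passed the adjusted p of 0.05) and, in the top row, for the 5 probe sets chosen on this contrast; vertical position within a row has no meaning. Aldh4a1 at -1.16 is the only red point, and Cyp2e1 (1.31) is the highest listed gene.

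With time after ligation, the listed genes passed at shares near or below those of the whole array. On day 1, 7 of the 119 listed genes were higher and 3 lower than sham (8.40%, against 7.47% of all probe sets). Akr1b8, the aldose reductase relative on the same chromosome as Akr1b1, read 287 on the diabetic and 200 on the non-diabetic day 1 array, against 52.7 and 53.7 at sham, a rise of 1.88 ± 0.35 log2 units (SE, limma adjusted p = 0.0107). Ugdh, which makes UDP-glucuronate, a source of the glucuronate that enters the route of Dcxr, rose by 1.94 ± 0.49 (limma adjusted p = 0.0373), a call lost without the day 56 pair (limma adjusted p = 0.0599). Slc6a6 rose by 1.97 ± 0.26 on day 1 (limma adjusted p = 0.00170). The potassium channel beta subunit Kcnab2, an aldo-keto reductase by family, fell by 1.32 on day 1 (SE 0.29, limma adjusted p = 0.0249). On day 7, 2 listed genes were higher and 2 lower (3.36%, against 7.65% of all probe sets), and Ahr was among the lower ones. Ahr read 20.4 on the diabetic and 16.5 on the non-diabetic day 7 array, against 48.6 and 47.8 at sham (-0.90 ± 0.23, limma adjusted p = 0.0367), a call lost with an offset of 64 (limma adjusted p = 0.0627) and without the day 1 pair (limma adjusted p = 0.0511). Over the ligated arrays 2 listed genes had an upward and 8 a downward slope (8.40%, against 9.92%), and 0 probe sets on the array kept a slope call without the day 56 pair. The changes of days 1 and 7 fall on the 4 arrays with the larger beta-actin 3′ to 5′ difference. The Gapdh control did not separate these arrays, and the part of RNA quality in the changes was not tested. Some cell type markers moved on those days as well. On day 1 the median change from sham was 1.85 log2 units for neutrophil markers (4 tested) and -0.65 for fibroblast markers (7 tested), against 0.089 over all genes. On day 7 it was -0.57 for neutrophil, 0.47 for fibroblast and 0.62 for macrophage markers (7 tested), against 0.16. The part of cell composition was not tested either.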

How the data were processed

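Per the submitters' processing notes, the authors deposited 1 linear intensity per probe set and array, made with Affymetrix Expression Console and PLIER; versions, background correction and scaling were not given in the sources used here. Each RNA was pooled from 3 rats, per the labels. Of 31099 probe sets, 57 controls were left out. Values were taken as log2(intensity + 16) and the 18625 probe sets whose mean exceeded the 40th percentile (5.20) were fitted with limma 3.58.1 in R 4.3.3 (lmFit, eBayes with trend), with p-values Benjamini-Hochberg adjusted over all of them. The fit held time point as a factor and diabetes over all 12 arrays (5 residual df). A slope on log2 day and the interactions of diabetes with log2 day and with ligation were fitted separately. Arrays were grouped by treatment and time point as labelled. No treatment had a second array at a time point, so the spread between replicate pools was not measured. The p-values rest on what each model left unfitted. In the main fit this is the variation of the diabetic minus non-diabetic difference over time points, together with noise. The small number of arrays limits the precision. Genes were named from the platform annotation (20826 probe sets with 1 symbol, 436 with several, 9780 with none) and represented by their brightest probe set. The genes and lists were chosen with earlier results of these data known. All 4 genes, a set of 19 looked-up genes and, per list, the genes with the smallest p past the threshold (up to 3 for diabetes, up to 2 per day) or the largest differences could be named. The fit was tested on simulated data. Alternatives were offsets of 1 and 64, no filter, quantile normalization, equal array medians, and each pair of arrays left out.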

Additional observations from a re-analysis of the deposited data

How the results depend on the processing

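The conditions differed in the same direction under every alternative for all 5 probe sets, and only Cyp1a1 moved by more than its spread over pairs (3.77 with an offset of 1, 1.06 with an offset of 64). Without single pairs, the Cyp1a1 difference ran from 1.91 to 2.35, Cbr1 from 1.38 to 1.65 and Dcxr from -1.74 to -1.42. Of 385 estimates for these genes on time and interactions under alternatives, 20 changed sign and 0 passed the threshold. The interactions and the Cyp1a1 estimates among them are again only a description. Cyp1a1 changed sign with an offset of 1 on day 1 (0.49) and day 56 (0.15) and in slope with an offset of 64 (0.0037). Dcxr at day 28 became -0.0079 with an offset of 64, -0.047 after quantile normalization and -0.038 with equal medians. Brighter Akr1b1 became 0.025 at day 14 and 0.078 at day 56 after quantile normalization, and 0.0025 at day 56 with equal medians. The dimmer set's interaction with log2 day became -0.026 and -0.0065 in those settings. With a pair left out, these ranged across 0: the slopes of Cyp1a1 (-0.090 to 0.17), Dcxr (-0.48 to 0.056) and brighter Akr1b1 (-0.0098 to 0.051), the interactions with log2 day of Dcxr (-0.31 to 0.22), brighter Akr1b1 (-0.013 to 0.049) and dimmer Akr1b1 (-0.067 to 0.041), and the interaction with ligation of brighter Akr1b1 (-0.081 to 0.090). The cause was not tested.

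Over all probe sets, calls for diabetes numbered 70, and 6 (without day 56) to 92 (without day 28) with a pair left out; they were 20 without sham, 43 without day 7 and 21 without day 14. The balance of 28 higher and 42 lower turned without day 1 (47 and 27), sham (11 and 9), day 14 (11 and 10) and day 56 (4 and 2). Day 1 gave 2384 without the filter and 917 (without day 7) to 2725 (without day 28) calls; day 7 gave 2775 without the filter and 1123 to 2857 (without day 28). Day 14 gave 0 to 48 and day 56 gave 0 to 767, the higher count without day 28 in each; day 56 also gave 2 with an offset of 1 and 10 without the filter. Slopes gave 2846 without the filter and 0 (without day 56) to 1773, with 621 without day 1 and 726 without day 28. On day 7 with equal medians 692 were higher and 797 lower; there the median of all probe sets was 0.042 log2 units above sham, and -0.030 after quantile normalization, against 0.15 as deposited. The total counts of calls under the other alternatives stayed within 1.5 times. At an unadjusted p under 0.05, the interaction with log2 day gave 70 (without day 1) to 594 (no filter) probe sets and that with ligation 28 to 201 (no filter). In the main fit time point was a factor, so each diabetic array was set against its partner. The slope and interaction fits held no such factor, so the pairs were not kept there. The labels give no replicate numbers. Dim values limit Cyp1a1 most, whose non-diabetic arrays lie mostly under the lower quartile.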

Other observations

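Among the listed genes that the report does not describe, 2 of 17 tested glutathione transferases were higher than sham on day 1 in both conditions combined, where 4.2% of all probe sets were higher. Of the 17, 12 lay below 0, and their median was -0.22 log2 units against 0.089 over all genes. Mgst1, a microsomal glutathione transferase, rose by 1.17 ± 0.27 log2 units (SE, limma adjusted p = 0.0295), and Mgst2 by 1.00 ± 0.26 (limma adjusted p = 0.0444), a call lost in 4 alternatives (limma adjusted p from 0.0531 with an offset of 1 to 0.0857 after quantile normalization). Me2, a mitochondrial malic enzyme, rose by 1.31 ± 0.30 (limma adjusted p = 0.0278). The carbonyl reductase relatives Dhrs7c, a sarcoplasmic reticulum protein of muscle, and Dhrs3, which reduces retinal, fell by 1.76 and 0.97 on day 1 (limma adjusted p = 0.04997 and 0.0416), the Dhrs3 call being lost in 2 alternatives (limma adjusted p of 0.0600 and 0.0609, without the day 56 and the day 7 pair) and the Dhrs7c call in 4 (limma adjusted p from 0.0572 with an offset of 1 to 0.0804 without the day 56 pair). On day 7, Nfat5, the transcription factor of osmotic stress that acts on Akr1b1 and Slc6a6, rose by 1.76 ± 0.46 (limma adjusted p = 0.0421), a call lost in 4 alternatives (limma adjusted p from 0.0533 without the day 1 pair to 0.0771 after quantile normalization). On that day Slc6a6 rose by 1.27 ± 0.26 (limma adjusted p = 0.0168), a call kept in 9 of 9 alternatives. The brighter Akr1b1 probe set was at -0.031 ± 0.21 (limma adjusted p = 0.949) and the dimmer one at -0.34 ± 0.24 (limma adjusted p = 0.419). Whether Nfat5 acted on either gene here was not tested. Days 1 and 7 are also the time points with the larger beta-actin 3′ to 5′ difference, which the Gapdh control did not show.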
